A study of Homo sapiens with 10 samples.

Results

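The 9 genes described here encode enzymes that make the reduced cofactor NADPH or carry sugars through the pentose phosphate pathway. They were chosen by gene symbol under a rule that used no measured value: PGLS, PGD, TKT, TALDO1, RPIA, RPE, ME1, IDH1 and IDH2. Earlier results of these data were known when the 9 genes were chosen. All 9 of 9 symbols were found among the 22003 features of the table, and all 9 were among the 14799 features with enough counts to be tested. RNA was sequenced from HaCaT cells, an immortalised human skin keratinocyte line labelled as wild type, whose tissue the labels give as mucosa. Pretreatment lasted 24 h, with vehicle or with LBP (polysaccharide-glycoprotein of Lycium barbarum, the goji berry shrub). In the irradiated groups a dose of 12 Gy followed, and RNA was taken 3 h later. The 10 libraries form 4 groups: irradiated LBP (LBP, then 12 Gy, n = 3), irradiated vehicle (vehicle, then 12 Gy, n = 3), LBP without irradiation (n = 2) and vehicle without irradiation (n = 2). The LBP concentration is not given in the labels, and all groups are cultures of a single line with no animal or donor replication. The labels number the replicates of each group as repeated experiments but do not say that they were separate cultures or that a number marks a shared day, so the p-values measure the spread between these libraries, which may be technical.

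Library totals ran from 31830506 to 62986831 counts, and the 9 genes together took 0.16% to 0.217% of each total. All 10 of 10 keratinocyte markers on the marker list averaged at least 1 CPM (counts scaled to the library total and by TMM factors). Their summed level was 14000 to 15000 CPM with irradiated LBP, 12300 to 14200 CPM with irradiated vehicle, 15600 to 16000 CPM with LBP and 12800 to 13500 CPM with vehicle. The 6 markers of simple and mucosal epithelium summed to 5130 to 5820, 5890 to 6720, 5860 to 6810 and 6560 to 6870 CPM in the same groups. These sums cover fewer genes and are not scaled by gene length, so they do not rank the lists. In FPKM, which is scaled by length, KRT8 of simple epithelium averaged 1390, 1620, 1520 and 1770 in these groups. The keratinocyte keratin KRT5 averaged 1240, 1190, 1310 and 1230 FPKM, and KRT14 1820, 1740, 2000 and 1700 FPKM. DCN of fibroblasts, PECAM1 of endothelium and TYR of melanocytes had no count in any library, but the other genes of these lists had some. No library of the 4 groups had a list sum above 7.3 CPM for fibroblasts, 3.61 CPM for endothelium or 1.27 CPM for melanocytes. In bulk RNA of this kind, fewer cells of a type and less RNA per cell cannot be told apart.

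The pentose phosphate pathway branches off glycolysis at glucose-6-phosphate. Its oxidative arm makes NADPH, the electron donor for glutathione and thioredoxin reduction and for lipid synthesis, and ends in ribulose-5-phosphate; its non-oxidative arm interconverts sugar phosphates and links nucleotide synthesis back to glycolysis. Cytosolic malic enzyme and the NADP-dependent isocitrate dehydrogenases make NADPH from citric acid cycle metabolites, and several of these genes are known targets of NRF2, a transcription factor that controls antioxidant genes and binds antioxidant response elements. Keratinocytes use NADPH to detoxify oxidants, which ionising radiation also forms.

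Levels of the 9 genes can be compared with each other only per length, as FPKM, which is scaled by gene length and library size. TKT was highest, with a mean of 273 FPKM over the 10 libraries and a range of 215 to 325 FPKM. TALDO1 followed with 203 FPKM (182 to 248) and PGD with 155 FPKM (113 to 195). Together these 3 genes made up 33.9%, 25.2% and 19.3% of the summed FPKM of the 9. IDH1 averaged 67.9 FPKM (59.4 to 79.4), PGLS 38.1 FPKM (31.9 to 46.3) and ME1 30.9 FPKM (27.1 to 35.2). The lowest were RPE with 20.5 FPKM (18.7 to 23.5), RPIA with 11.5 FPKM (10.4 to 12.2) and IDH2 with 5.42 FPKM (4.6 to 6.77). Among neighbours in this order the ranges overlapped for TKT and TALDO1, for TALDO1 and PGD, and for PGLS and ME1, and for no other pair. Within each library the first gene of every neighbouring pair was nevertheless the higher one, in 10 of 10 libraries. The order of levels was thus identical in all 10 libraries.

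**Figure D1:**
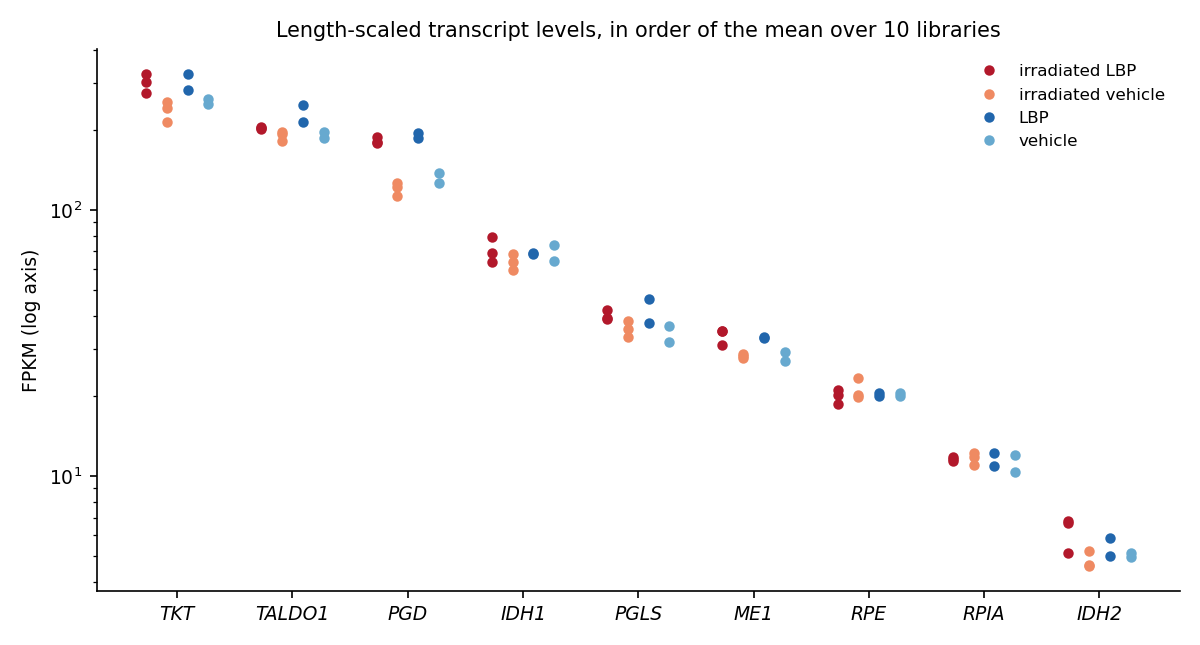
Levels of the 9 enzyme genes in FPKM (log axis), 1 point per library, coloured by group, with genes in order of their mean over 10 libraries. TKT averages 273 FPKM at one end and IDH2 5.42 FPKM at the other.

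With LBP, PGD rose in both radiation states. TKT and ME1 rose in irradiated cells, and TALDO1 and PGLS passed the test when the LBP differences in irradiated and non-irradiated cells were averaged. RPIA, RPE, IDH1 and IDH2 passed none of these tests in edgeR; DESeq2 called IDH2 in irradiated cells. In irradiated cells 3 of 9 genes were called higher and 0 lower, against 2.79% of all tested features called higher and 4.36% called in either direction. A call is a Benjamini-Hochberg adjusted p under 0.05 over all tested features in edgeR's quasi-likelihood test. In non-irradiated cells, with 2 libraries in each group, 1 of 9 was called higher, against 0.541% of all features. Averaged over both radiation states, 5 of 9 were called higher, against 3.99% of all features. The median log2 fold change of the 9 was 0.19 in irradiated cells, 0.30 in non-irradiated cells and 0.25 averaged, and the median of all tested features was 0.01 in each of the 3 comparisons. The averaged comparison uses the same libraries as the comparisons within each radiation state and is not a further observation. The summed keratinocyte markers given above were also higher with LBP than with vehicle in non-irradiated cells. The leukocyte list, nearly all of it CD68, summed to 14.2 to 19.1 CPM with irradiated LBP, against 11.4 to 13.7 CPM with irradiated vehicle; the part of either in these results was not tested.

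The groups also differed without overlap in genes that missed the call. In CPM, every irradiated LBP library was above every irradiated vehicle library for 6 of 9 genes, PGLS, PGD, TKT, TALDO1, ME1 and IDH2, and below for 1 gene, RPE. Over all features 13.9% lay wholly above and 13.6% wholly below. In non-irradiated cells the same 6 genes lay wholly above vehicle and none wholly below, where 23.2% of all features lay wholly above and 22.3% wholly below. These counts hold in CPM: in FPKM (scaled by gene length) IDH2 overlapped in both states and RPE in irradiated cells.

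**Figure D2:**
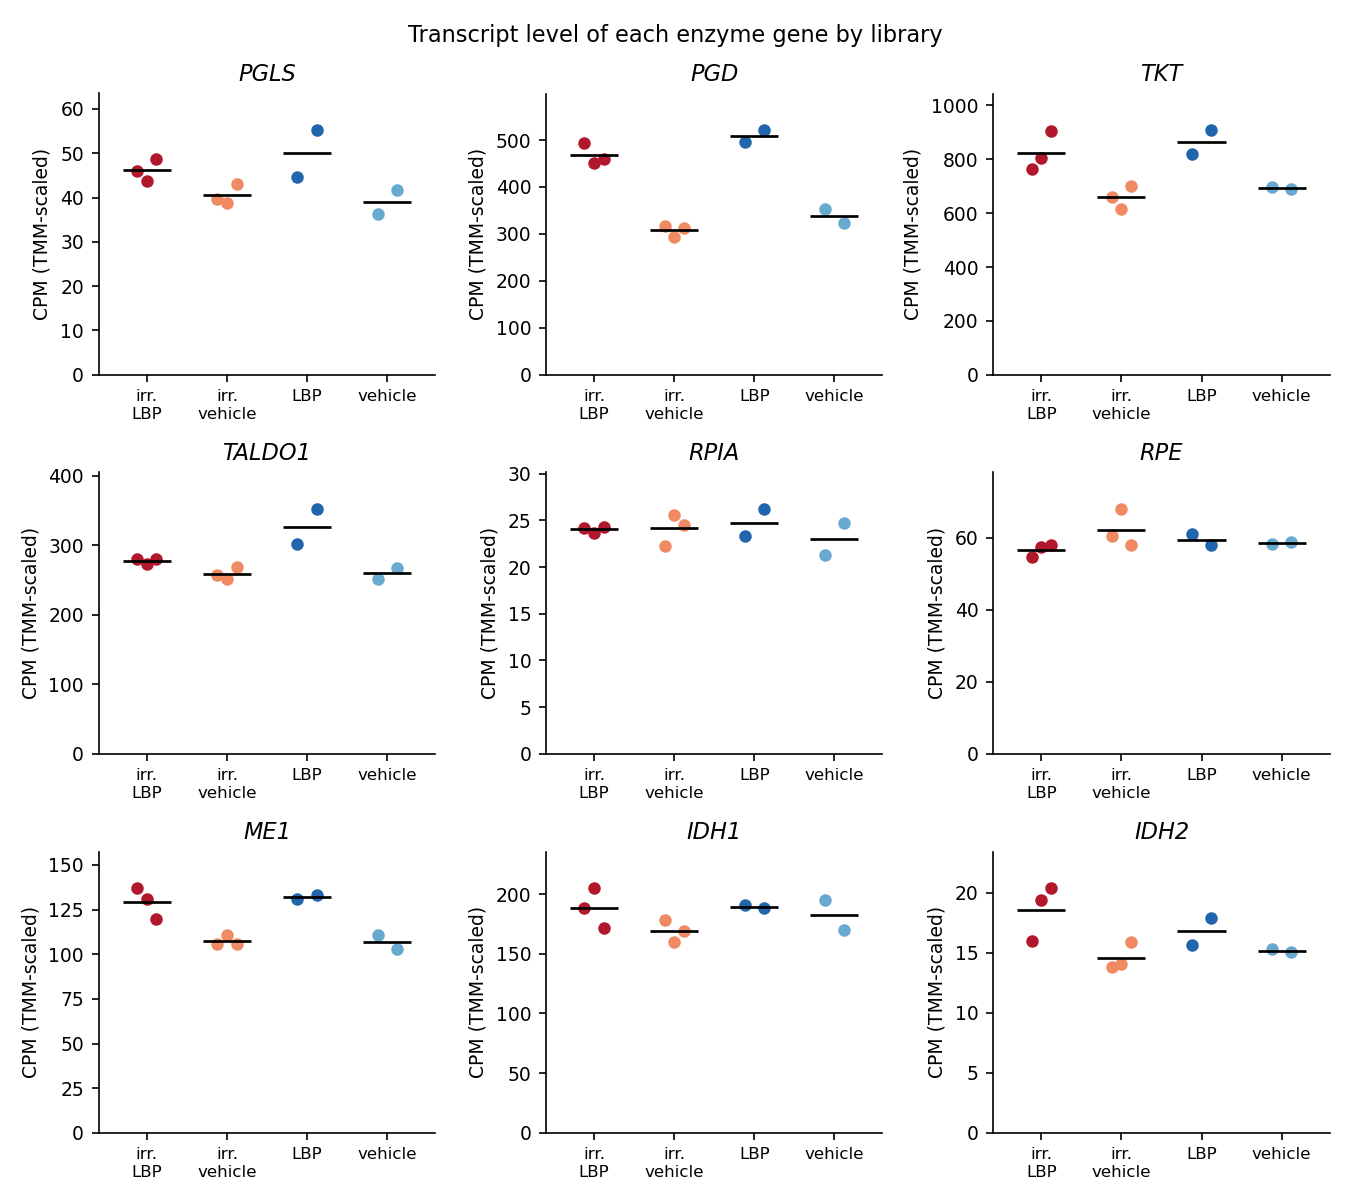
CPM of each of the 9 genes in every library, 1 panel per gene and 1 point per library, with the group mean as a line. In the PGD panel the 5 libraries with LBP, at 451 to 521 CPM, stand above the 5 without it, at 294 to 353 CPM.

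PGLS (chr19:17511629-17521288, plus strand, GENCODE on GRCh38) encodes 6-phosphogluconolactonase, which opens the lactone ring in the oxidative arm. It had 45.9, 43.8 and 48.7 CPM in irradiated LBP libraries, against 39.6, 38.7 and 43.1 CPM in irradiated vehicle libraries. Without irradiation it had 44.7 and 55.2 CPM with LBP, against 36.2 and 41.8 CPM with vehicle. The LBP libraries were higher in both states, by small steps: 43.8 CPM with irradiated LBP lay next to 43.1 CPM with irradiated vehicle. The log2 fold change was 0.19 ± 0.09 (SE) in irradiated cells (adjusted p = 0.26), 0.36 ± 0.11 in non-irradiated cells (adjusted p = 0.2) and 0.27 ± 0.07 averaged (adjusted p = 0.045). The averaged call was lost on leaving out any 1 of 8 libraries, all except irradiated LBP replicate 2 and LBP replicate 1, with an adjusted p of 0.051 to 0.21 among these. The counts of PGLS may include reads of antisense transcripts annotated across it, since the strand setting of the counting is not given in the sources used here.

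PGD (chr1:10398592-10420144, plus strand) encodes 6-phosphogluconate dehydrogenase, which oxidises and decarboxylates 6-phosphogluconate and yields NADPH. It had 494, 451 and 460 CPM in irradiated LBP libraries, against 316, 294 and 312 CPM in irradiated vehicle libraries. Without irradiation it had 496 and 521 CPM with LBP, against 353 and 323 CPM with vehicle. All 5 LBP libraries lay above all 5 libraries without LBP, and the gap between 451 CPM and 353 CPM was wider than the spread inside either set. The log2 fold change was 0.61 ± 0.06 in irradiated cells, a 1.52-fold level (95% interval 0.47 to 0.75, adjusted p = 0.00031). In non-irradiated cells it was 0.59 ± 0.08, a 1.51-fold level (95% interval 0.42 to 0.76, adjusted p = 0.0031). The averaged log2 fold change was 0.60 ± 0.05 (adjusted p = 2.9e-05). The call in irradiated cells held without any 1 of the 10 libraries, with a log2 fold change of 0.57 to 0.64. The call in non-irradiated cells was lost without vehicle replicate 2, at 0.53 and an adjusted p of 0.06.

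TKT, TALDO1, RPIA and RPE form the non-oxidative arm. TKT (chr3:53224707-53256052, minus strand) encodes transketolase, which moves carbon units between sugar phosphates with thiamine diphosphate as cofactor. It had 763, 805 and 904 CPM in irradiated LBP libraries, against 661, 615 and 702 CPM in irradiated vehicle libraries. Without irradiation it had 821 and 908 CPM with LBP, against 698 and 690 CPM with vehicle. Every LBP library was above every library without LBP, 763 CPM being the lowest of the first set and 702 CPM the highest of the second. The log2 fold change was 0.32 ± 0.08 in irradiated cells, a 1.25-fold level (95% interval 0.15 to 0.49, adjusted p = 0.042). In non-irradiated cells the same value, 0.32 ± 0.10, missed the call (adjusted p = 0.18), and averaged it was 0.32 ± 0.06 (adjusted p = 0.012). The call in irradiated cells lay close to the threshold: it was lost on leaving out any 1 of 7 libraries (all except irradiated LBP replicate 1 and the LBP replicates), at an adjusted p of 0.055 to 0.16. The averaged call was lost without vehicle replicate 1 or 2, at an adjusted p of 0.061 and 0.055. TKT had 26125 to 43374 counts per library, while its relative TKTL1 had 2 counts in 1 library and TKTL2 had none in any.

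TALDO1 (chr11:747329-765024, plus strand) encodes transaldolase, the other carbon-transferring enzyme of this arm. It had 280, 273 and 280 CPM in irradiated LBP libraries, against 258, 251 and 269 CPM in irradiated vehicle libraries. Without irradiation it had 302 and 352 CPM with LBP, against 252 and 268 CPM with vehicle. The groups did not overlap in either state, but LBP replicate 2, at 352 CPM, stood above every other library. The log2 fold change was 0.10 ± 0.07 in irradiated cells (adjusted p = 0.42), 0.33 ± 0.08 in non-irradiated cells (adjusted p = 0.11) and 0.21 ± 0.05 averaged (adjusted p = 0.033). The averaged call was lost without irradiated LBP replicate 1, irradiated vehicle replicate 1 or 2, LBP replicate 2, or either vehicle replicate, at an adjusted p of 0.059 to 0.16; without LBP replicate 2 the value was 0.15 (adjusted p = 0.12). The same library was also the highest for PGLS, at 55.2 CPM, and without it the averaged value of PGLS was 0.19 (adjusted p = 0.17). In LBP replicate 2, a smooth trend of counts on transcript length and GC content put PGLS 0.193 and TALDO1 0.164 log2 units above the average library. After removal of this trend, the log2 fold change in non-irradiated cells was 0.22 for TALDO1 (adjusted p = 0.071) and 0.20 for PGLS (adjusted p = 0.18). Averaged, it was 0.18 for TALDO1 (adjusted p = 0.0083) and 0.22 for PGLS (adjusted p = 0.0096).

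RPIA (chr2:88691644-88750935, plus strand) encodes ribose-5-phosphate isomerase and RPE (chr2:210002565-210022259, plus strand) ribulose-phosphate 3-epimerase, which turn ribulose-5-phosphate into the substrates of transketolase. RPIA had 24.2, 23.7 and 24.3 CPM in irradiated LBP libraries, against 22.3, 25.6 and 24.5 CPM in irradiated vehicle libraries, and 23.3 and 26.2 CPM with LBP, against 21.3 and 24.7 CPM with vehicle. The groups overlapped in both states, and the averaged log2 fold change was 0.05 (adjusted p = 0.7). RPE had 54.5, 57.4 and 58 CPM in irradiated LBP libraries, against 60.4, 67.9 and 58 CPM in irradiated vehicle libraries, the third pair differing only beyond the printed digits. Without irradiation it had 61 and 57.9 CPM with LBP, against 58.3 and 58.9 CPM with vehicle. In CPM, RPE was the only one of the 9 with all irradiated LBP libraries below all irradiated vehicle libraries, and its groups overlapped in non-irradiated cells. In FPKM the irradiated groups overlapped too, at 18.7 to 21.1 FPKM with LBP against 19.9 to 23.5 FPKM with vehicle. The log2 fold change of RPE in irradiated cells was -0.13 ± 0.07 (adjusted p = 0.3). RPE overlaps KANSL1L on the other strand, which had 103 to 205 counts per library against 1863 to 3700 for RPE, and its retrogene copy RPEL1 had 6 to 17.

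ME1 (chr6:83210389-83431071, minus strand) encodes cytosolic malic enzyme, which turns malate into pyruvate and makes NADPH. It had 137, 131 and 120 CPM in irradiated LBP libraries, against 106, 111 and 106 CPM in irradiated vehicle libraries. Without irradiation it had 131 and 133 CPM with LBP, against 111 and 103 CPM with vehicle. All 5 LBP libraries lay above all 5 libraries without LBP, the closest being 120 CPM and 111 CPM. The log2 fold change was 0.27 ± 0.06 in irradiated cells, a 1.2-fold level (95% interval 0.13 to 0.40, adjusted p = 0.038). In non-irradiated cells it was 0.30 ± 0.08 (adjusted p = 0.12), and averaged it was 0.28 ± 0.05 (adjusted p = 0.0072). In irradiated cells the call was lost on leaving out any 1 of 9 libraries, all except irradiated LBP replicate 3, at an adjusted p of 0.052 to 0.13. The averaged call was kept in all 10 such fits, with a log2 fold change of 0.26 to 0.31.

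IDH1 (chr2:208236227-208266074, minus strand) and IDH2 (chr15:90083045-90102504, minus strand) encode the NADP-dependent isocitrate dehydrogenases of the cytosol and peroxisome and of the mitochondrion. IDH1 had 188, 205 and 172 CPM in irradiated LBP libraries, against 178, 160 and 169 CPM in irradiated vehicle libraries, and 191 and 188 CPM with LBP, against 195 and 170 CPM with vehicle. Its groups overlapped in both states (averaged log2 fold change 0.10, adjusted p = 0.34), and an antisense gene, IDH1-AS1, overlaps it. IDH2 had 16, 19.4 and 20.4 CPM in irradiated LBP libraries, against 13.8, 14.1 and 15.9 CPM in irradiated vehicle libraries, and 15.7 and 17.9 CPM with LBP, against 15.3 and 15.1 CPM with vehicle. In CPM, IDH2 was above its control in every LBP library of both states, but in FPKM the groups overlapped in both. Irradiated LBP replicate 1 had 5.17 FPKM, against 5.26 FPKM in irradiated vehicle replicate 3. Without irradiation, LBP replicate 1 had 5.03 FPKM, against 5.17 FPKM in vehicle replicate 1. The log2 fold change of IDH2 was 0.35 ± 0.11 in irradiated cells (95% interval 0.12 to 0.58, adjusted p = 0.081) and 0.15 ± 0.13 in non-irradiated cells (adjusted p = 0.65). Without irradiated LBP replicate 1, the lowest of its group, the value in irradiated cells was 0.45 (adjusted p = 0.039). With all libraries in DESeq2 it was 0.35 ± 0.12 (adjusted p = 0.041). IDH1 stood 9.57 to 14.7 times above IDH2 in FPKM over the 10 libraries.

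**Figure D3:**
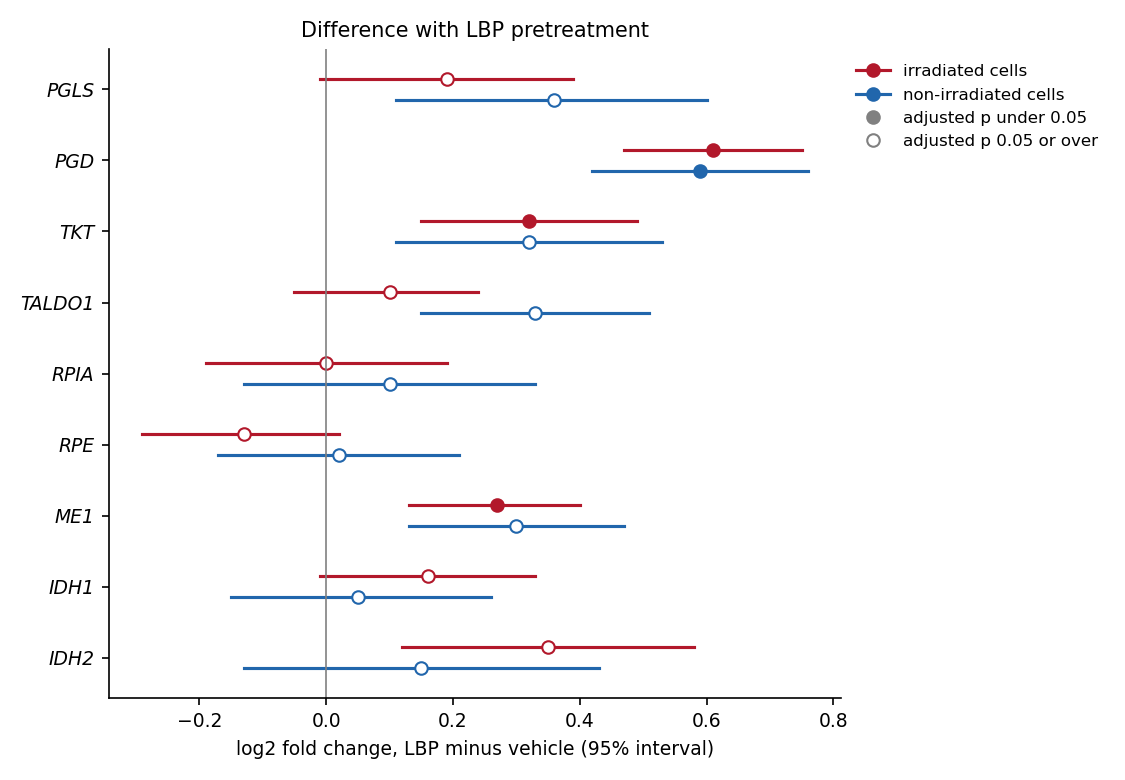
Log2 fold change with LBP for each of the 9 genes, in irradiated and in non-irradiated cells, with 95% intervals; filled points have an adjusted p under 0.05. PGD stands at 0.61 and 0.59, RPIA at 0.00 and 0.10, and RPE at -0.13 and 0.02.

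Ratios between transcripts come from the same values as the differences above. With PGD, the gene with the largest change, on top, they are not a further observation. The FPKM ratio of PGD to TALDO1 was 0.874 to 0.94 with irradiated LBP, against 0.618 to 0.649 with irradiated vehicle, and 0.787 to 0.869 with LBP, against 0.639 to 0.742 with vehicle. The ratio of PGD to TKT was 0.549 to 0.686 with irradiated LBP, against 0.48 to 0.526 with irradiated vehicle, and 0.6 to 0.659 with LBP, against 0.504 to 0.528 with vehicle. Both ratios were higher in each LBP library than in any library of its control. The ratio of IDH1 to IDH2 overlapped in both states. It was 9.57 to 13.3 with irradiated LBP, against 12.1 to 14.7 with irradiated vehicle, and 11.7 to 13.8 with LBP, against 12.9 to 14.2 with vehicle. All these ratios are described without a test.

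The 3 genes called in irradiated cells are shown by the sequence just upstream of their start sites, from RefSeq on GRCh38.p14, because PGD and ME1 are known NRF2 targets. Promoter windows of 250 bases before to 50 bases after the start were searched on both strands for TGACNNNGC, the core letters of the antioxidant response element. Each line below runs 5′ to 3′ on the strand of the gene, covers bases -250 to -51 from the start and holds no annotated GENCODE exon; capitals mark the core. The PGD stretch lies inside the span of PGD given above, since GENCODE starts the gene further upstream than RefSeq.
PGD, chr1:10398814-10399013, plus strand: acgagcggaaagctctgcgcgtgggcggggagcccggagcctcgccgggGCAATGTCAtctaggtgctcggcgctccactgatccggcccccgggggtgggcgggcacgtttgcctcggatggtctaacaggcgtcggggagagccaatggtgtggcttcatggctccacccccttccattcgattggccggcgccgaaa
TKT, chr3:53256073-53256272, minus strand: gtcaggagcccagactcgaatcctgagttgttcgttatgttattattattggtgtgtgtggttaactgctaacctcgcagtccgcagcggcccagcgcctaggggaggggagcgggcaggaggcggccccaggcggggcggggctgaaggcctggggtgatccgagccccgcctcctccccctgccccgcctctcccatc
ME1, chr6:83431102-83431301, minus strand: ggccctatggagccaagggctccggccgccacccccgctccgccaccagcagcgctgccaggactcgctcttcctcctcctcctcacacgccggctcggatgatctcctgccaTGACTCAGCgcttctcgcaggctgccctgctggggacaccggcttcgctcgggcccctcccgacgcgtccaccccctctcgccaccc
The core lies on the opposite strand in PGD, at -201 to -193, and on the gene's strand in ME1, at -137 to -129. The ME1 match also holds TGACTCA, the AP-1 site, which 4.95% of all promoter windows hold; the window of ME1 has a second core after the start, at 12 to 20. No core is in the TKT window, which says only that these letters are not there. All 9 genes matched the promoter table, with 10 windows in all since IDH1 has 2. The windows of IDH1 and IDH2 lie inside the spans of these genes given above, downstream of the start in GENCODE. The core was in 4 of 10 windows, those of PGD, RPE, ME1 and 1 of IDH1, against 4687 of 35116 windows (13.3%) over all genes. RPE and 1 window of IDH1 hold the letters without a called change, and TKT has a called change without them in its window. The part of these letters in the differences with LBP was not tested.

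Irradiation moved none of the 9 genes past the test. In cells without LBP, 0 of 9 were called after 12 Gy, against 0.439% of all features. Of the 9, 0 had an unadjusted p under 0.05 in edgeR, against 1022 of all 14799 features, and DESeq2 called 0. The log2 fold changes of the 9 ran from -0.14 to 0.08, and the 95% intervals lay between -0.31 and 0.28. PGD had the lowest value, -0.14, with all 3 irradiated vehicle libraries (316, 294 and 312 CPM) below both vehicle libraries (353 and 323 CPM); its interval was -0.29 to 0.02 and its adjusted p 0.76. Over all features 13.9% lay wholly below in this comparison. After LBP, 0 of 9 were called with 12 Gy, against 0.142% of all features. Of the 9, 1 gene had an unadjusted p under 0.05 in edgeR, against 2003 of all 14799 features, and DESeq2 called 0. That gene was TALDO1, with a log2 fold change of -0.24 ± 0.07 (95% interval -0.40 to -0.07, adjusted p = 0.27), in the comparison that contains LBP replicate 2. PGD and TALDO1 lay wholly below in this comparison, as did 14% of all features.

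**Figure D4:**
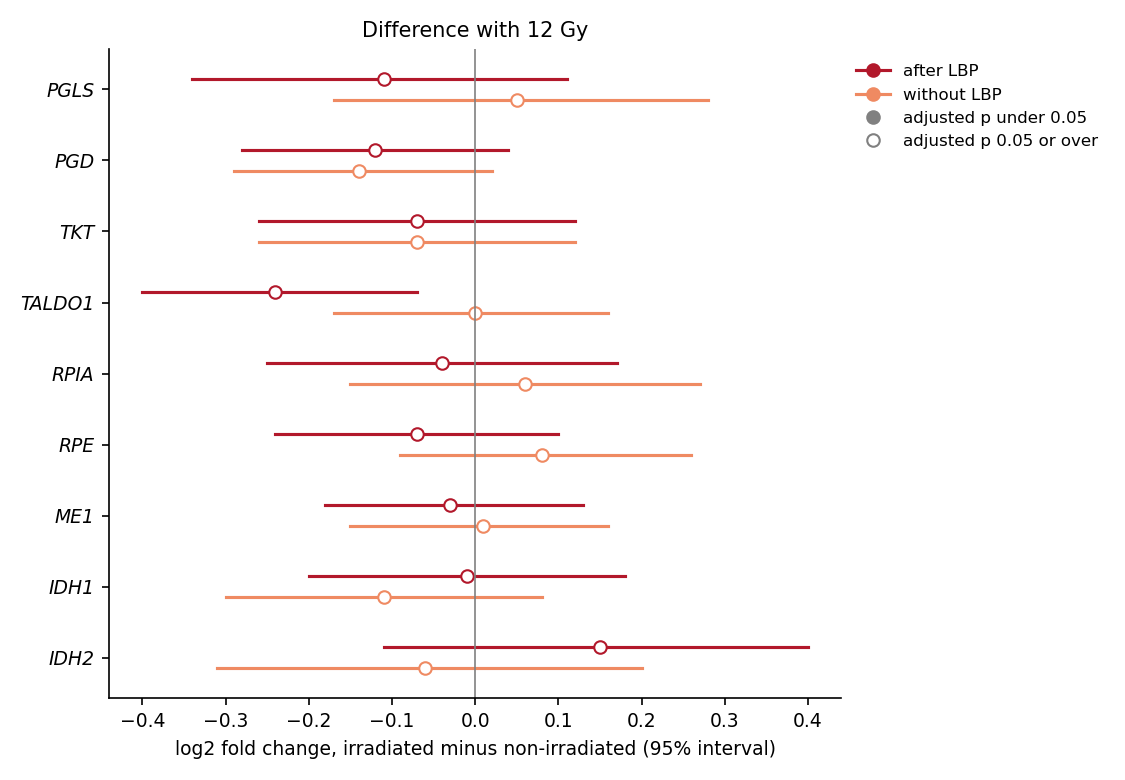
Log2 fold change with 12 Gy for each of the 9 genes, after LBP and without LBP, with 95% intervals. No point has an adjusted p under 0.05, and only the interval of TALDO1 after LBP leaves out 0.

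Whether the difference with LBP depended on irradiation was tested as an interaction. None of the 9 genes was called, against 0.0135% of all features, and DESeq2 called 0. Of the 9, 1 had an unadjusted p under 0.05 in edgeR, TALDO1 at -0.23 ± 0.11 (adjusted p = 0.61), against 1213 of all 14799 features. For PGD the interaction was 0.02 ± 0.10 with a 95% interval of -0.20 to 0.24, and for TKT it was 0.00 with an interval of -0.26 to 0.27. The 0.61 and 0.59 of PGD in the 2 states therefore differed by less than their error. The calls of TKT and ME1 in irradiated cells alone do not show a difference between the states, since their interaction was 0.00 and -0.03 (adjusted p = 0.99 and 0.94).

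Lists of neighbouring pathways were set beside the 9 genes. Other genes around the pentose phosphate pathway, such as the ribose and phosphoribosyl enzymes, had 9 tested genes of 11 listed. In edgeR 0 of them were called with LBP in irradiated cells, in non-irradiated cells or averaged, with 3, 1 and 3 at an unadjusted p under 0.05. Over all 14799 tested features, 3205, 2003 and 3444 had such a p-value in these comparisons, which applies to each list here. DESeq2 called 2, 0 and 0 of the 9, namely H6PD and PRPS1. In edgeR, H6PD, an NADPH-making dehydrogenase of the endoplasmic reticulum, had 0.37 ± 0.10 in irradiated cells (adjusted p = 0.056), and PRPS1, a phosphoribosyl pyrophosphate synthetase, -0.20 ± 0.06 (adjusted p = 0.086). Their median log2 fold changes were -0.06, 0.07 and -0.04. Of 11 tested genes for other sources of NADPH, MTHFD2, the mitochondrial folate enzyme, was the only one called. It had 213, 169 and 191 CPM in irradiated LBP libraries, against 157, 161 and 152 CPM in irradiated vehicle libraries, and 196 and 175 CPM with LBP, against 131 and 131 CPM with vehicle. Its log2 fold change was 0.50 ± 0.10 in non-irradiated cells (adjusted p = 0.039), 0.29 ± 0.08 in irradiated cells (adjusted p = 0.067) and 0.39 ± 0.06 averaged (adjusted p = 0.0045). Of 11 citric acid cycle genes 0 were called by edgeR in these comparisons, with 3, 1 and 4 at an unadjusted p under 0.05, and DESeq2 called 1, 0 and 2, namely IDH3A and, averaged, IDH3A and CS, at -0.15 and -0.14 in edgeR.

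Of 11 tested glycolysis genes next to the branch point, 4 were called higher in irradiated cells, 1 in non-irradiated cells and 5 averaged, with none lower. Over all features 2.79%, 0.541% and 3.99% were called higher. DESeq2 called 6, 1 and 7 of the 11, against 1162, 345 and 1439 of all 14799 features in either direction. ALDOC, an aldolase, had 54.4, 56.6 and 61.5 CPM in irradiated LBP libraries, against 27.1, 24.4 and 28.5 CPM in irradiated vehicle libraries. SLC2A1, the glucose transporter GLUT1, rose by 0.44 ± 0.07 on the log2 scale in irradiated cells (adjusted p = 0.0072). HK2, a hexokinase, rose by 0.35 ± 0.07 (adjusted p = 0.017). GPI, the isomerase at the branch point itself, rose by 0.31 ± 0.07 (adjusted p = 0.03). Of 10 reductases that spend NADPH, 3 were called higher in irradiated cells, 2 in non-irradiated cells and 3 averaged, against the same shares of all features. DESeq2 called 3, 3 and 5 of the 10. TXNRD1, thioredoxin reductase, had 676, 413 and 454 CPM in irradiated LBP libraries, against 236, 261 and 255 CPM in irradiated vehicle libraries, a log2 fold change of 1.04 ± 0.15 (adjusted p = 0.0029). GSR, glutathione reductase, had 200, 196 and 200 CPM, against 167, 158 and 179 CPM, a log2 fold change of 0.24 ± 0.06 (adjusted p = 0.043). The quinone reductase NQO1 changed by 1.03 ± 0.08 in the same comparison (adjusted p = 4.5e-05). The 0.61 of PGD in the same comparison lies between the values of GSR and of NQO1; differences between genes were not tested. No tested gene of these 5 lists was called in either irradiation comparison or in the interaction.

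**Figure D5:**
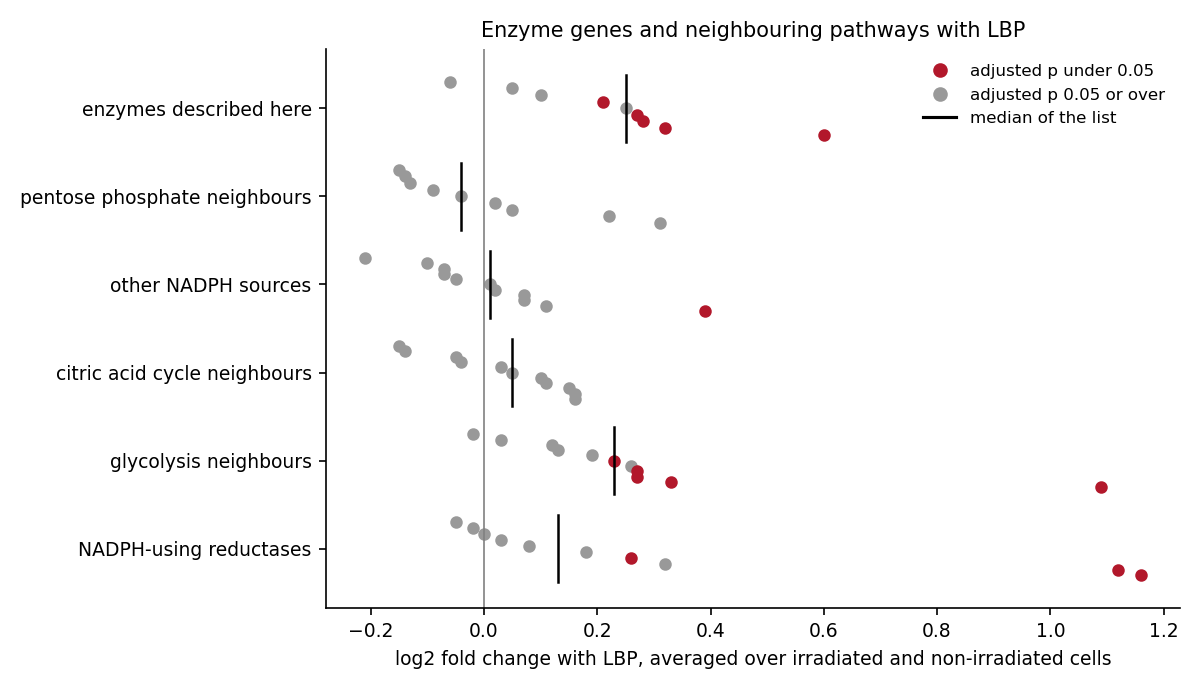
Log2 fold change with LBP, averaged over irradiated and non-irradiated cells, for the 9 enzyme genes and 5 neighbouring lists, 1 point per tested gene; red points have an adjusted p under 0.05 and the black line is the median. The 9 genes have a median of 0.25, while the other pentose phosphate genes centre on -0.04.

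The genes with the pattern most like PGD and TKT were found by the root mean square difference of centred log2 CPM over the 10 libraries, among 13294 named genes. For PGD they were PTGR1, a prostaglandin reductase, at 0.061, PHGDH, the first enzyme of serine synthesis, at 0.084 and SLC48A1, a haem transporter, at 0.089; the median over all candidates was 0.35. For TKT they were GPI at 0.036, the protease TMPRSS4 at 0.039 and the mitochondrial protease LONP1 at 0.043, with a median of 0.23. PTGR1 differed with LBP by 0.67 ± 0.07 in irradiated cells and 0.68 ± 0.09 in non-irradiated cells, close to the 0.61 and 0.59 of PGD by construction. This likeness is a description of these 10 libraries.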

How the data were processed

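The authors deposited whole-number counts per gene and FPKM values (scaled by gene length and library size) for the 10 libraries. Per the submitters' processing notes, HISAT2 and the build GRCh38 were used; the tool that counted reads, its strand setting and all versions were not given in the sources used here. Groups come from the labels. The test of the counts was that of edgeR 4.0.16 (R 4.3.3), with filterByExpr (minimum count 10, 14799 features kept), TMM scaling and a quasi-likelihood fit with 1 mean per group over all 10 libraries (6 residual degrees of freedom), with contrasts for LBP, 12 Gy, their interaction and LBP averaged over both radiation states. Adjusted p-values follow Benjamini and Hochberg over all features, with calls under 0.05. Errors of log2 fold changes are SE. Deposited FPKM served for levels between genes and, as log2(FPKM + 1), for limma 3.58.1; DESeq2 1.42.0 was a further alternative. The script was tested on simulated data. Gene positions are from GENCODE; promoter sequences are from RefSeq.

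The 9 genes, all lists (named for their pathway) and the rules for naming genes were chosen with earlier results of these data known. Named list genes are those called with LBP, up to 4 per list by p; genes like a member are the 3 nearest for the 2 members with the largest averaged change. Removal of the length and GC trend (values for 12963 features, 87.6% of those tested) was added after seeing the data. Among counts from 1 to 10, 59.7% were even, so counting error may exceed what counts imply.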

Additional observations from a re-analysis of the deposited data

How the results depend on the processing

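Over 54 combinations of the 9 genes with a comparison, 1062 values were recomputed under the alternatives. Of these, 1003 kept their side of the threshold, 48 lost a call, 11 gained one and 0 calls turned round. Most of the 1003 were never called: the main fit called only 3, 1 and 5 genes with LBP in irradiated cells, in non-irradiated cells and averaged. In irradiated cells ME1 lost its call in 13 and TKT in 11 of 20 settings. Averaged, PGLS, TALDO1 and TKT lost theirs in 11, 9 and 3 of 19. Values near 0 that were not called did change sign. That of RPIA with LBP in irradiated cells differed in sign in 17 of 20 settings, and the interaction of TKT in 16 of 19. PGD kept its call in irradiated cells under every alternative run, and in non-irradiated cells under all but 1, without vehicle replicate 2. The number of the 9 called with LBP in irradiated cells was 3, and became 1 with only the groups compared in the fit, with limma on log2(FPKM + 1), on log2(FPKM + 0.1) or without the filter on low values, or at a fold of at least 1.5, and 5 with the length and GC trend removed. In non-irradiated cells it was 1, and became 3 with DESeq2 (TALDO1 and ME1 added) and 3 with the trend removed (TKT and ME1 added). Averaged, it was 5, and became 3, 3 and 2 in the 3 limma fits and 1 at a fold of at least 1.5. Leaving out 1 library gave 1 to 3, 0 to 1 and 2 to 5 genes in these comparisons. It was 0 for both irradiation comparisons and the interaction under all settings run. Beyond the fold limit and the fits with fewer libraries, the cause of these differences was not tested.

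Over all features, 645 were called with LBP in irradiated cells, but 1162 with DESeq2, 409 with only the groups compared, 383, 371 and 169 with limma, 208 at a fold of at least 1.5, 1123 with the trend removed and 176 to 722 without 1 library. In non-irradiated cells 119 were called, but 345 with DESeq2, 188 without a filter, 278 with only the groups compared, 45 with unfiltered limma, 210 with the trend removed and 38 to 175 without 1 library. Averaged, 1025 were called, but 648, 655 and 344 with limma, 240 at a fold of at least 1.5, 1747 with the trend removed and 309 to 1141 without 1 library; 57.7% of these calls were higher, or 46.6% when scaled by library totals alone. With 12 Gy, 65 were called without LBP (123 with DESeq2, 109 with only the groups compared, 43 and 21 in 2 limma fits, 25 to 75 without 1 library) and 21 after LBP (163 with DESeq2, 10 with only the groups compared, 7 to 11 with limma, 45 without a filter, 43 with the trend removed, 8 to 51 without 1 library). The interaction gave 2 (16 with DESeq2, 7 without a filter, 1, 2 and 3 in the 3 limma fits, 0 with the trend removed, 0 to 5 without 1 library).

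The replicate numbers were not taken as pairs. Same-numbered libraries correlated in their deviations from group means at -0.16 to 0.11 (13 pairs), others at -0.14 to 0.16 (24 pairs). In a group of 2 libraries the deviations mirror each other, so these ranges are partly fixed in advance and cannot decide whether the numbers mark pairs. With the replicate block, 4 of the 9 were called with LBP in irradiated cells, IDH2 among them at 0.35 (adjusted p = 0.048), 1 in non-irradiated cells and 5 averaged, with 813, 148 and 1189 features called; for the interaction it called 1 feature. Depth was no limit for these genes, the lowest of which had at least 562 counts in each library; the number of libraries is a limit in every group.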

Other observations

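Some markers used to check the cell type moved with LBP. DSG3, a desmosomal cadherin of keratinocytes, averaged 389 CPM with irradiated LBP, against 289 CPM with irradiated vehicle (log2 fold change 0.43 ± 0.08, adjusted p = 0.013), and TP63, the basal keratinocyte transcription factor, averaged 269 CPM, against 203 CPM (0.41 ± 0.08, adjusted p = 0.023). KRT18, a keratin of simple epithelium, was lower with irradiated LBP, at 1260 CPM against 1620 CPM (-0.36 ± 0.08, adjusted p = 0.035), while MUC1, a membrane mucin, was higher, at 13.4 CPM against 9.02 CPM (0.58 ± 0.10, adjusted p = 0.0078). In non-irradiated cells none of these 4 was called, and their interactions were not called either, the lowest adjusted p being 0.57 for MUC1. MUC1 was also called higher with 12 Gy after LBP, at 13.4 CPM with irradiated LBP against 8.48 CPM with LBP (0.67 ± 0.11, adjusted p = 0.043). KRT17, a keratin of activated keratinocytes, averaged 2500 CPM with LBP, against 1660 CPM with vehicle (0.59 ± 0.14, adjusted p = 0.079 in edgeR, called by DESeq2), and was called higher averaged over both radiation states (0.46 ± 0.09, adjusted p = 0.011). The part of these markers in the differences of the 9 enzyme genes was not tested.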
